A study of Homo sapiens with 6 samples.

Results

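The pancreatic lipase genes PNLIP, PNLIPRP1 and PNLIPRP3 lie together on the long arm of chromosome 10, and the 3 of them were described here out of 19970 protein-coding genes. They were taken by name, and their peaks were counted in the gene with 5 kb on both sides (its window) and along 300 kb around the genes, chr10:116400001-116700000 (hg38), called the stretch below. The stretch held 118 of 93095 H3K27me3 peaks and 25 of 30734 EZH2 peaks in cells with intact ZCCHC8, and 85 of 69840 and 25 of 19566 in cells without it. The cluster was chosen by a measured value: PNLIP lies in one of the 5 widest H3K27me3 domains of the wild-type list, made by joining peaks across gaps of up to 3 kb. Its H3K27me3 values are therefore a description. That domain measured 61.4 kb, the last of the 5 measured 58.9 kb and the next narrower one 54.9 kb.

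The cells were ACHN, an established human renal carcinoma line. The groups were ACHN of genotype ZCCHC8-WT (titled Ctrl, written WT below) and of genotype ZCCHC8-KO (titled sgZ8, written KO), each precipitated with an antibody against H3K27me3 and one against EZH2, and each with an input library. There was 1 library per antibody and genotype, so differences between genotypes could be described but not tested. The sources used here do not say whether the knockout is 1 clone, and peak lists measure neither ZCCHC8 nor gene expression, so neither the knockout nor the cell identity could be checked from them.

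ZCCHC8 is the scaffold of the NEXT complex, which hands short-lived nuclear RNAs to the RNA exosome, and by its title the series concerns the effect of such complexes on H3K27me3. H3K27me3 is the repressive histone mark laid down by Polycomb repressive complex PRC2, whose catalytic subunit is EZH2. PNLIP encodes pancreatic triglyceride lipase, which acinar cells of the pancreas secrete to digest dietary fat in the gut together with its cofactor colipase. PNLIPRP1 is a close relative with little lipase activity of its own, and PNLIPRP3 is a less studied member of the same family. PNLIPRP2, a further relative that the gene table used here (RefSeq, GRCh38.p14) lists as a transcribed pseudogene, lies next to PNLIPRP1 and is not a member. PNLIP and PNLIPRP1 are commonly used as marker genes of acinar cells, a cell type foreign to a renal line.

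On the plus strand, in order, PNLIPRP3 occupies chr10:116427847-116477957, PNLIP chr10:116545931-116567855 and PNLIPRP1 chr10:116590959-116609175. Their promoters are shown because 2 of the 3 were overlapped by peaks and because they hold few CG dinucleotides. Where the table has several starts for a gene, the first is shown. Each sequence runs 5′ to 3′ from 250 bases before to 50 bases after a RefSeq start on GRCh38.p14, and capitals mark 4 motifs searched on both strands. These were the dinucleotide CG and the TATA box TATAAA. The others were the E-box CANNTG, which helix-loop-helix factors bind, and the word TGGGAA, which the factor RBPJ binds. The last is the promoter of SPMIP5 (formerly C10orf82), the gene at the right edge of the marked stretch, on the minus strand.
PNLIPRP3 (chr10:116427597-116427896): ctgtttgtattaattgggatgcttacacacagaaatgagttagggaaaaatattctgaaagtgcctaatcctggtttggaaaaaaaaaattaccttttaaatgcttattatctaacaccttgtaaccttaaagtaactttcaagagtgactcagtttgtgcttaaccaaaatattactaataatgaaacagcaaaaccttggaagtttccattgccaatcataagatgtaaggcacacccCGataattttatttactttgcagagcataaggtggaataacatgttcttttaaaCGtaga
PNLIP (chr10:116545681-116545980): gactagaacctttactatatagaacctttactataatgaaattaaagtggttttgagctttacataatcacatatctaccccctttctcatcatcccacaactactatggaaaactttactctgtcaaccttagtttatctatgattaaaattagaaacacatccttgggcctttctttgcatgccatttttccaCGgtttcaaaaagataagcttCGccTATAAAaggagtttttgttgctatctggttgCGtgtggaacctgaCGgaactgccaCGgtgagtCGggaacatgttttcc
PNLIPRP1 (chr10:116590709-116591008): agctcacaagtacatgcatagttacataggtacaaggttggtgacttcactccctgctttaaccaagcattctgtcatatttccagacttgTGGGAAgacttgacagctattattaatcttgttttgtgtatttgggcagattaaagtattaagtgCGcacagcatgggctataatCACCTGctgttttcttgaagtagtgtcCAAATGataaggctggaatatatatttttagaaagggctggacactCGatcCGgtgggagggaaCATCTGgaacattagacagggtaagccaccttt
SPMIP5 (chr10:116670233-116670532): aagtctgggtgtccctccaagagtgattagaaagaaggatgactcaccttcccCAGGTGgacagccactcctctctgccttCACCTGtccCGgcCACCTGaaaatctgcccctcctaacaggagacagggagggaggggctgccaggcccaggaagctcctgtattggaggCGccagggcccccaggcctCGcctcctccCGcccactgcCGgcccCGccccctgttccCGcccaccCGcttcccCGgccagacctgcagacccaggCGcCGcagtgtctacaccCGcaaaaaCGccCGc

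The lipase promoters were poor in CG. PNLIPRP3 had 2 CG dinucleotides, PNLIP 6 and PNLIPRP1 3, against a median of 21 over 22131 promoters of protein-coding genes, of which 6.03%, 21.4% and 10.3% had fewer. Their G+C content was 32.3%, 38% and 41.3%, below the median of 62.3%, while the SPMIP5 promoter had 14 CG and 66.3% G+C. PNLIP held a TATAAA 30 bases before its start, which 9.46% of promoters hold on either strand. PNLIPRP1 held 3 CANNTG and 1 TGGGAA, present in 65.1% and 22.7% of promoters, and PNLIPRP3 had neither. No 2 different motifs overlapped in these promoters, and a match is a run of letters and not a shown binding site.

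Peaks touched the lipase promoters in some lists only. In the WT H3K27me3 list a peak covered all 300 bases of the PNLIPRP3 promoter and another 80 bases of the PNLIP promoter, and none reached that of PNLIPRP1. In the KO H3K27me3 list none of the 3 promoters was touched. No WT EZH2 peak touched them either, and in the KO EZH2 list a peak covered 142 bases of the PNLIP promoter. Of all 22131 promoters, 0.633% were touched by H3K27me3 in WT, 0.488% by H3K27me3 in KO, 0.583% by EZH2 in WT and 0.434% by EZH2 in KO. Only 23 promoters lay wholly under a WT H3K27me3 peak, the PNLIPRP3 promoter among them.

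A low CG count was shared by most promoters that H3K27me3 touched. Of 140 promoters touched in WT, 119 (85%) had at most 5 CG, against 21.4% of all 22131 promoters. The median of the 140 was 2 CG. For EZH2 in WT the corresponding median was 12 CG, with 34 of 129 promoters (26.4%) at or below 5, near the share of all promoters. The PNLIPRP3 promoter, itself in the WT H3K27me3 set, had 2 CG, the median of that set. The PNLIP promoter, with 6 CG, also belongs to that set and was above its median of 2. It was below the median of 9.5 among promoters touched by EZH2 in KO.

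**Figure D1:**
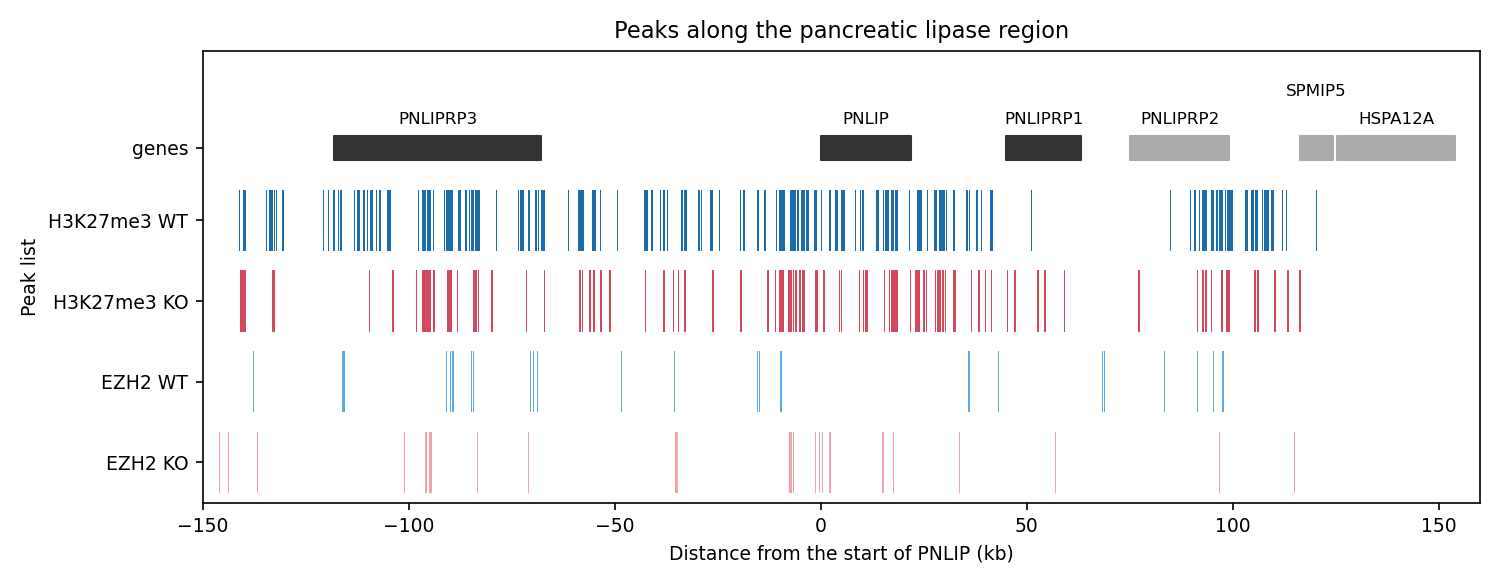
Peaks of the 4 lists along the 300-kb stretch of chromosome 10, drawn to scale against the distance from the start of PNLIP in kb, with the 3 lipase genes dark and neighbouring genes in grey. H3K27me3 peaks run from left of PNLIPRP3 to SPMIP5 in both genotypes, with a gap over PNLIPRP1 in WT that holds peaks in KO.

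H3K27me3 over the cluster was bounded by a long empty stretch on the right and by a shorter gap on the left. In WT the first peak began at 116404683 and the last ended at 116666365, 261683 bp further on. To the right, the next peak began 364 kb on in WT and 368 kb on in KO. To the left, the gap to the nearest outer peak was 15320 bp in WT and 12078 bp in KO, no longer than some gaps inside the stretch, which reached 19486 bp (WT) and 22923 bp (KO). The 300 kb on the left held 2 WT and 4 KO H3K27me3 peaks, and the 300 kb on the right held none in either genotype. The neighbouring genes were nearly free of it: WT peaks covered 0.306% of the window of CCDC172 on the left and 0.0918% of that of HSPA12A, a heat shock protein family gene, on the right.

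Within the stretch, H3K27me3 peaks covered less in KO, as they did over the whole list. WT peaks covered 60.5 kb of the 300 kb (20.2%) and KO peaks 39.7 kb (13.2%), a KO/WT ratio of 0.657 for length and 0.720 for peak number. Over chromosome 10 the ratio of covered length was 0.803 and over chromosomes 1 to 22 and X 0.732. Peaks here were wider than the rest of their lists, with median widths of 394 (WT) and 400 bp (KO) against 269 and 265 bp. Of the WT peaks 42.4% were 500 bp or wider, and of the KO peaks 29.4%, against 13.4% and 12.8% over the lists.

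The authors' peak scores, which no source used here defines, were also high for their lists. The median score of the stretch was 9 in WT, where the list's median was 7, and 7 in KO, where it was 6. A score of 10 or more was reached by 54 of 118 WT peaks (45.8%) and by 7 of 85 KO peaks (8.24%), against 15.6% and 3.51% of the whole lists. Scores of the WT and KO lists may not be on the same footing, so no change is read from them.

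**Figure D2:**
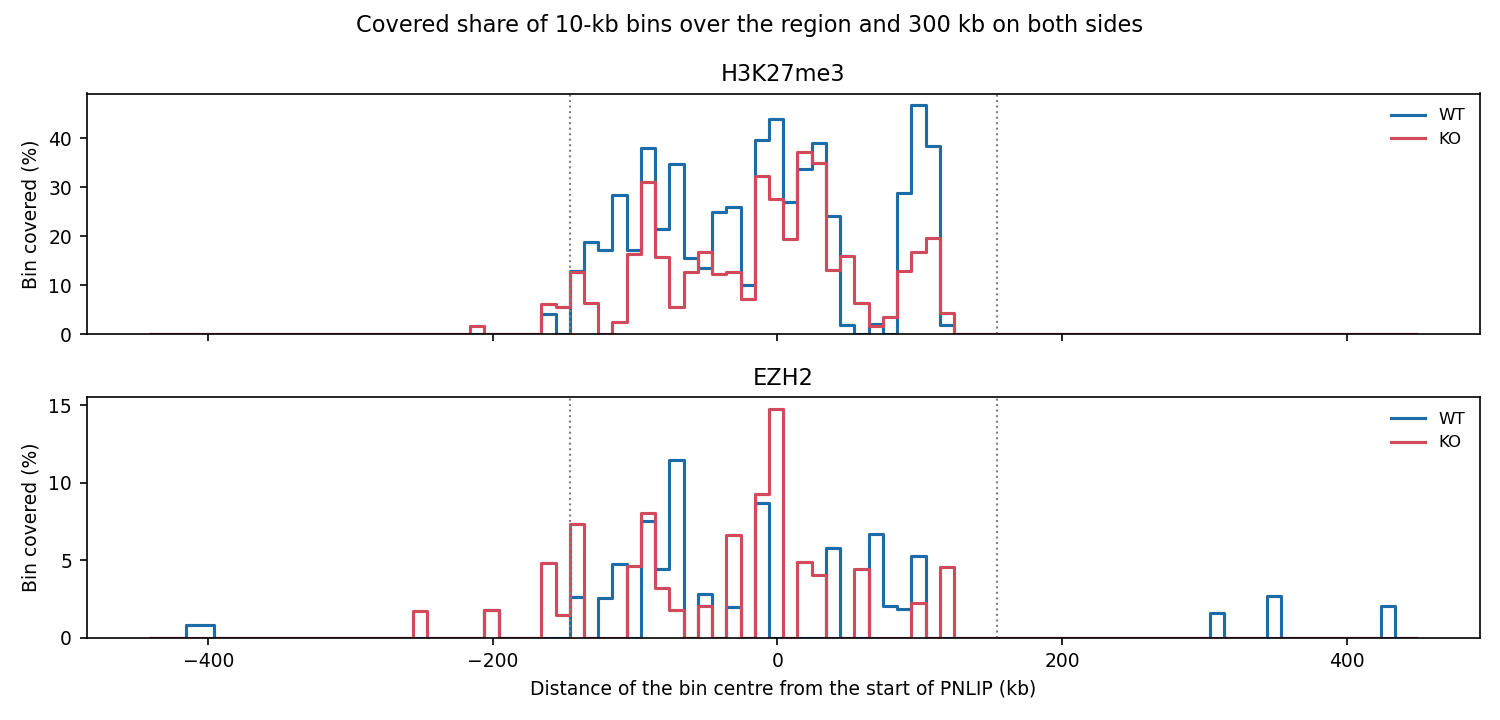
Share of each 10-kb bin covered by H3K27me3 peaks (top) and EZH2 peaks (bottom) in WT and KO, against the distance of the bin centre from the start of PNLIP, with dotted lines at the ends of the 300-kb stretch. Nearly all H3K27me3 lies between the lines in both genotypes, and WT lies above KO in 21 of the 30 bins between the lines.

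Along 30 bins of 10 kb, KO coverage was lower than WT in 21, higher in 6 and absent from both lists in 3. The WT and KO profiles had a Spearman rho of 0.711 and a Pearson r of 0.711 across the 30 bins, which are neighbours in the same libraries and share their base composition. For EZH2 the values were 0.199 and 0.142. The highest WT bins were those from 116640001, over the end of PNLIPRP2 (46.8% covered), and from 116540001, over the start of PNLIP (43.9%). In KO these bins had 16.8% and 27.5%. The highest KO bin began at 116560001, over the end of PNLIP, with 37.1% against 33.8% in WT.

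PNLIPRP3, the leftmost member, had the lowest KO/WT ratio of H3K27me3 among the 3. Its window was covered to 26.1% by 31 peaks in WT and to 11.9% by 13 peaks in KO, a KO/WT ratio of 0.455. Ordered by covered share, it held place 44 of 19970 genes in WT and place 193 in KO. The lists differed at both ends of the gene. The 10-kb bin from 116470001, at its 3′ end, had 34.8% in WT and 5.57% in KO. At its 5′ end WT listed a peak of 341 bp over the start itself, chr10:116427583-116427923 (score 6), and one of 369 bp at chr10:116428608-116428976 (score 12). In KO the nearest peak lay 8438 bp downstream of the start. From 116413362 to 116436284 KO listed no H3K27me3 peak at all, its longest gap in the stretch at 22923 bp, where WT listed 12 peaks covering 3942 bp.

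The middle of PNLIPRP3 was marked in both lists. The widest KO peak of the whole stretch, 2135 bp at chr10:116449132-116451266 (score 11), overlapped WT peaks of 806 bp (score 14) and 800 bp (score 10). The widest WT peak, 1638 bp at chr10:116454956-116456593 (score 13), overlapped a KO peak of 1037 bp (score 9). Over the gene itself coverage was 27.9% in WT and 13.7% in KO, in the 5 kb upstream 14.5% and none, and in the 5 kb downstream 19.96% and 5.68%. Of its 31 WT peaks 7 overlapped a KO peak (22.6%, exact 95% interval 9.59 to 41.1).

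PNLIP, the lipase itself, was densely covered by H3K27me3 in both genotypes. Its window was covered to 34.0% by 20 peaks in WT and to 27.2% by 18 peaks in KO, a KO/WT ratio of 0.799, at places 18 and 26 of 19970 genes. In WT a peak of 269 bp covered the start, chr10:116545901-116546169 (score 9). In KO the nearest began 539 bp downstream, a peak of 419 bp (score 7), and within 1 kb on both sides of the start WT peaks covered 620 bp and KO peaks 680 bp. The 5 kb upstream were the densest part in WT, at 53.2%, and had 31.3% in KO, while the 5 kb downstream had 28% and 37.5%. The gene itself had 30.99% and 23.9%.

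More of the PNLIP peaks were listed in both genotypes than of the other members' peaks, by count. Of 20 WT peaks 13 overlapped a KO peak (65%, 40.8 to 84.6), and of 18 KO peaks 11 overlapped a WT peak (61.1%, 35.7 to 82.7). At PNLIPRP3 the interval of the WT share, given above, touches this one at its edge, and at PNLIPRP1 1 of 3 WT peaks was shared. Toward the 3′ end, the WT peak of 1177 bp at chr10:116569389-116570565 (score 15) overlapped a KO peak of 578 bp (score 8). Within the gene, WT peaks of 399, 181 and 776 bp overlapped a single KO peak of 1536 bp, chr10:116563065-116564600 (score 9).

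The stitched domain over PNLIP was broader in WT, the list whose domain width was used to choose the cluster. The difference in width is therefore a description. Peaks joined across gaps of up to 3 kb made a WT domain of 61.4 kb, chr10:116526268-116587709, with 39 peaks covering 34.9% of it, and over the same stretch KO had 34 peaks covering 27.7%. In KO the peaks over PNLIP fell into domains of 18.3 and 17.7 kb, a division that depends on the gap allowed. Across gaps of up to 5 kb the domains were 84608 bp in WT and 72413 bp in KO. Across gaps of up to 1 kb the widest measured 5387 bp in WT and 4287 bp in KO. Among 182 WT domains of 20 kb or more, the KO/WT ratio of covered length over the WT domain had a median of 0.576 and ranged from 0 to 1.25. The PNLIP domain, at 0.794, stood at place 50 from the top. All 182 were taken by their width in WT, which favours ratios below 1 in advance, so no loss in KO is read from them.

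PNLIPRP1, the rightmost member, had more H3K27me3 in KO. Its window was covered to 3.55% by 3 peaks in WT and to 9.31% by 9 peaks in KO, a KO/WT ratio of 2.63, at places 1312 and 309. Inside the gene WT listed 1 peak of 182 bp, chr10:116596948-116597129 (score 12), and KO 7 peaks covering 2227 bp, with scores of 6 to 8. The first of these, 268 bp at chr10:116591160-116591427 (score 7), lay 201 bp downstream of the start, whereas the nearest WT peak lay 3250 bp upstream. Beside the gene, the 5 kb upstream held 1 WT peak of 617 bp (score 14), which overlapped a KO peak, and 12.3% and 8.02% were covered.

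PNLIPRP1 lay beside the longest WT gap between peaks of the stretch, and the next longest covered part of the gene. WT listed no H3K27me3 peak from 116597130 to 116610944 or from 116611147 to 116630632, where KO listed 3 and 2 peaks covering 1127 and 533 bp. Only 6 of the 30 bins had higher coverage in KO, and those from 116590001, 116600001 and 116620001, over and beyond PNLIPRP1, were among them. The KO/WT ratio at PNLIPRP1 depended on the window and on the score threshold. In the gene alone it was 12.2 (0.999% in WT and 12.2% in KO), and with 10 kb on both sides 1.32 (7.34% and 9.69%). With peaks of score below 7 left out of both lists it was 1.45 (3.55% and 5.15%). That step removes more of the KO list, since 69.8% of WT and 28.6% of KO H3K27me3 peaks score 7 or more.

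**Figure D3:**
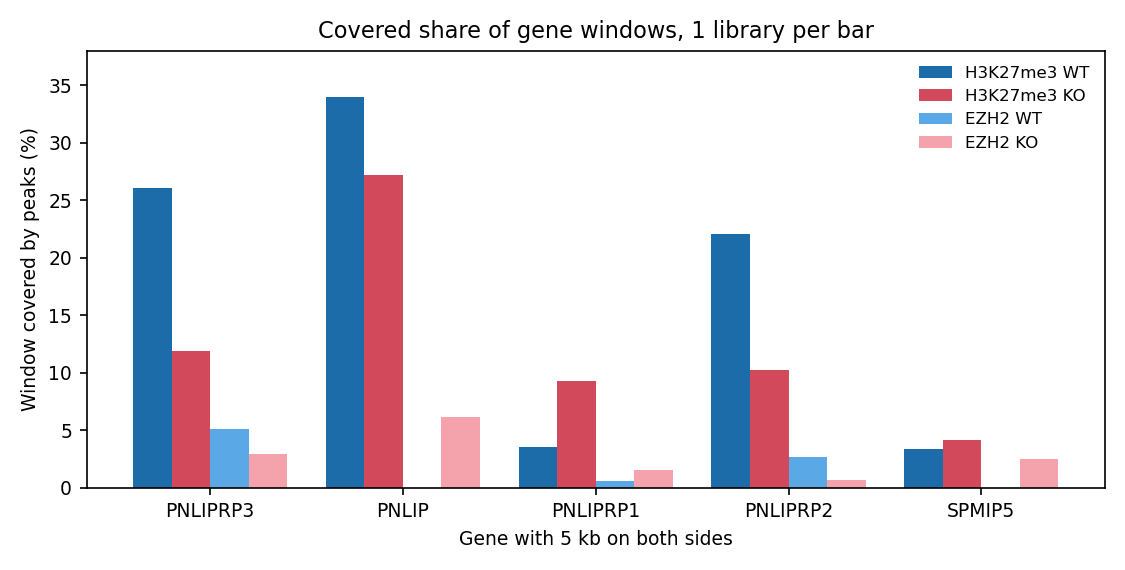
Share of the gene window (gene with 5 kb on both sides) covered by peaks in each of the 4 lists, for the 3 lipase genes and the neighbours PNLIPRP2 and SPMIP5, with 1 library behind each bar and therefore no error bars. H3K27me3 is lower in KO at PNLIPRP3, PNLIP and PNLIPRP2 and higher at PNLIPRP1 and SPMIP5, and EZH2 at PNLIP is listed in KO only.

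All 3 members had an H3K27me3 peak in both genotypes, as had 18.2% of protein-coding genes, and 26.1% had one in WT and 23.2% in KO. The median of the 3 members was 26.1% in WT against 11.9% in KO, and that of all genes was 0 in both. A difference of 1.5-fold or more was present at PNLIPRP3 (lower in KO) and PNLIPRP1 (higher) and not at PNLIP. With peaks of score 7 or more PNLIP also passed that size (34.0% and 20.97%, 1.62-fold lower in KO) and PNLIPRP1 no longer did, nor did PNLIPRP1 with 10 kb on both sides. That threshold keeps 69.8% of the whole WT H3K27me3 list and 28.6% of the KO list, whose scores may be on different scales. Among 6214 genes marked in either list, 46.9% were lower and 30.1% higher by 1.5-fold or more, so differences of this size were common between these lists. All 4 lists had a peak at PNLIPRP3 and PNLIPRP1, as at 8.83% of protein-coding genes, and 3 of the 4 at PNLIP. Since the genes were chosen for their H3K27me3, nothing is read from these counts.

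**Figure D4:**
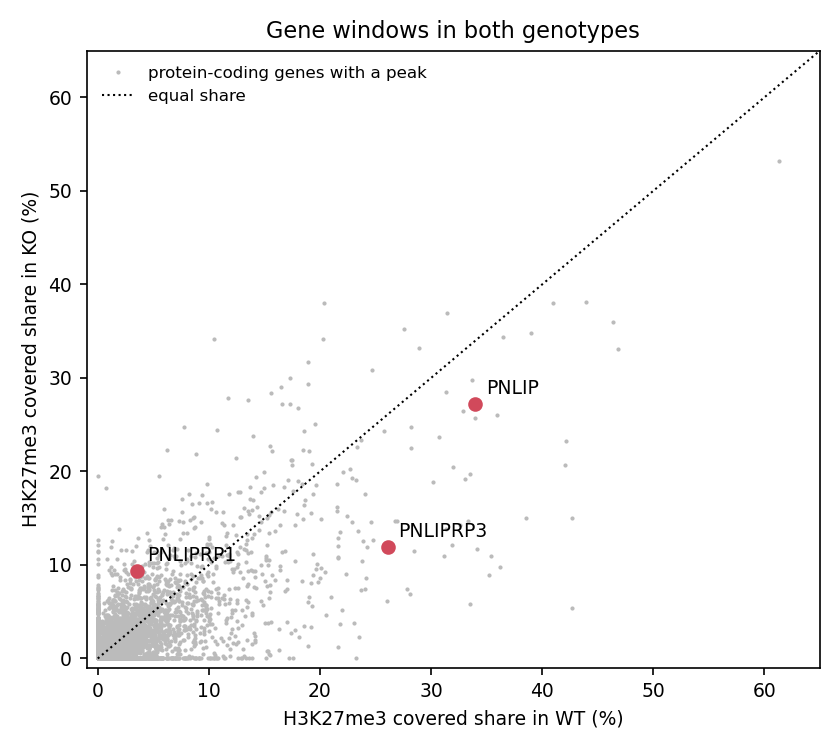
H3K27me3 covered share of gene windows in WT (horizontal) and KO (vertical) for protein-coding genes with a peak in any of the 4 lists (grey) and the 3 lipase genes (red), with a dotted line where both shares are equal. PNLIP lies somewhat under that line at 34.0% and 27.2%, PNLIPRP3 farther under it and PNLIPRP1 above it.

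Between the members, H3K27me3 coverage in WT was closer to that of the PNLIPRP3 and PNLIP genes (27.9% and 30.99%) than to that of PNLIPRP1 (0.999%). In KO the 3 genes had 13.7%, 23.9% and 12.2%, and no such contrast is read. The 67973 bp between PNLIPRP3 and PNLIP, with the pseudogene RNU6-1090P, had 33 WT peaks covering 24.99% and 26 KO peaks covering 17.4%. The 23103 bp between PNLIP and PNLIPRP1, with the lipase pseudogene PNLIPP1, had 6930 bp covered in WT and 5812 bp in KO. Between PNLIPRP1 and PNLIPRP2 coverage was 1.72% and 1.45%. The PNLIPRP2 window had 22.1% in WT and 10.2% in KO, and the sequence from PNLIPRP2 to SPMIP5 31.6% and 13.3%. SPMIP5 had 3.37% and 4.17% in its window, and no peak of any list lay in the part of HSPA12A inside the stretch.

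The small annotated genes of the stretch take in the peaks around them, since 5 kb on both sides were counted. Near the left edge, peaks covered 26.6% (WT) and 18.2% (KO) of the window of the pseudogene SNRPGP6, and HMGB3P8, inside PNLIPRP3, had 25.2% and 6.05%. RNU6-1090P, just left of PNLIP, had 50.6% and 42.7%, and PNLIPP1 37.4% and 27.2%. The long non-coding RNA genes LOC124902510, which overlaps the end of PNLIPRP1, and HSPA12A-AS1 had 1.38% and 4.39%, and 1.57% and none, in WT and KO respectively. Farther out, the GDNF receptor gene GFRA1 and the enolase family gene ENO4 had no H3K27me3 peak in either list and EZH2 in WT only (0.0738% and 0.589%). SHTN1, which encodes a protein of neuronal polarity, had 8.62% and 6.13%.

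EZH2 peaks numbered 25 in each genotype and covered less of the stretch than H3K27me3 peaks (20.2% in WT and 13.2% in KO). They covered more of it than of the flanks. The 300 kb on the left had EZH2 over 0.116% (WT) and 0.327% (KO), and the 300 kb on the right over 0.212% and none. WT peaks covered 6861 bp (2.29% of the stretch) and KO peaks 7785 bp (2.60%), a KO/WT ratio of 1.13, while the ratio was 0.831 over chromosome 10 and 0.705 over chromosomes 1 to 22 and X. With peaks of score 7 or more alone, 5 of 25 in KO and 19 of 25 in WT, the ratio was 0.361. That threshold keeps 65.5% of the whole WT EZH2 list and 21.2% of the KO list, whose scores may be on different scales. With the WT list reduced to its top-scoring peaks at the size of the KO list the ratio was 1.37, and between the outer ends of the member windows 1.27. For comparison, VAX1, a homeobox gene farther right, had EZH2 over 7.65% (WT) and 7.04% (KO) of its window, and H3K27me3 over 2.01% and 0.932%.

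At the members, EZH2 coverage was lower in KO at PNLIPRP3 and higher at PNLIP and PNLIPRP1. PNLIPRP3 had 10 WT peaks covering 5.12% of its window and 5 KO peaks covering 2.94%, at places 190 and 353 of 19970 genes. PNLIP had no EZH2 peak in WT and 6 in KO covering 6.16%, at place 133. PNLIPRP1 had 1 WT peak (0.578%) and 2 KO peaks (1.58%). With peaks of score 7 or more, the KO list kept no EZH2 peak at PNLIPRP3, 2 at PNLIP (1.59%) and 1 at PNLIPRP1, and the WT list none at PNLIPRP1. With 10 kb on both sides the direction at PNLIPRP1 turned, to 3.27% in WT and 1.17% in KO. An EZH2 peak in WT was listed for 27% of protein-coding genes, in KO for 18.4% and in both for 12.6%. Of 6548 genes marked in either list, 59.5% were at least 1.5-fold lower in KO, as PNLIPRP3 was, and 25.4% at least 1.5-fold higher, as PNLIP and PNLIPRP1 were.

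The WT gap over PNLIP was the longest EZH2 gap of the stretch. It ran for 45234 bp from 116536499 to 116581732, and KO listed 10 EZH2 peaks in it covering 3296 bp. The KO peaks closest to the PNLIP start were 370 bp at chr10:116545453-116545822 (score 5), ending 109 bp upstream, and 345 bp at chr10:116546148-116546492 (score 6), while the nearest WT peak ended 9433 bp upstream. None of the 6 KO peaks scored above 7, and 2 of them reached 7. These 6 peaks lay in a window marked by H3K27me3 in both genotypes.

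At PNLIPRP3 the WT EZH2 peaks stood in groups, and 9 of 10 overlapped a WT H3K27me3 peak. The widest, 734 bp at chr10:116429742-116430475 (score 9), lay 1895 bp downstream of the start, where KO listed neither EZH2 nor H3K27me3. The highest score, 11, belonged to a peak of 175 bp at chr10:116455013-116455187, under the widest WT H3K27me3 peak. In KO, EZH2 peaks of 521 bp (score 6) and 515 bp (score 5) overlapped the 2135-bp H3K27me3 peak in the middle of the gene.

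No EZH2 peak of the stretch was listed in both genotypes. Of 25 WT peaks 0 overlapped a KO peak, which allows a share of up to 13.7% (exact 95% interval), and elsewhere the share was 5.13%. Of the 25 KO peaks 0 overlapped a WT peak, against 7.98% elsewhere. At so few peaks a difference from the rest of the genome was not detectable. Of the 118 WT H3K27me3 peaks of the stretch, 50 had a KO peak over them (42.4%, 33.3 to 51.8), and elsewhere the share was 15.8%. Of the WT covered length 31.0% was also covered in KO, and of the KO length 47.1% in WT.

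Across the lists, sharing was more frequent among peaks of higher score. Peaks elsewhere with the same scores as the 118 WT peaks had a shared share of 23.9%, and with the same scores and width classes 27.1%. For the 85 KO peaks the share was 57.6% (46.4 to 68.3), against 31.7% and 34.1%. Because the cluster was chosen for its wide WT H3K27me3 domain, these values are a description. The intervals treat peaks as independent, cover counting error only, and neighbouring peaks are not independent. The density of marking also differs, since 13.2% of the stretch lay under KO peaks, and its part in the sharing was not tested.

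**Figure D5:**
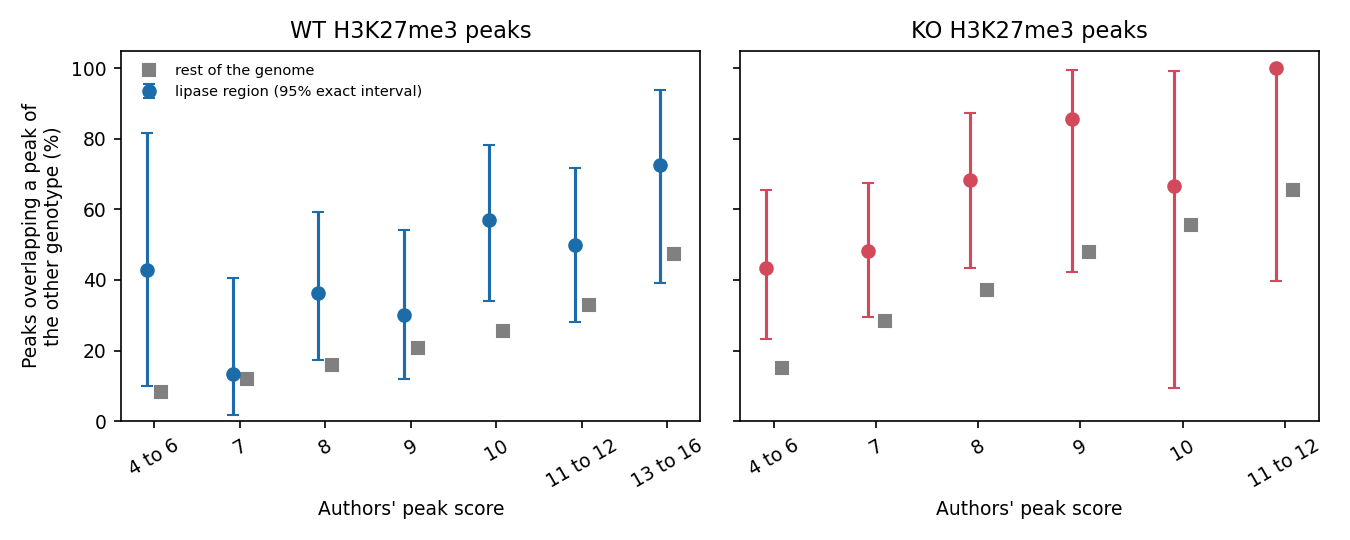
Share of H3K27me3 peaks overlapping a peak of the other genotype by at least 1 bp, by the authors' peak score, for WT peaks (left) and KO peaks (right). Coloured points are peaks of the lipase stretch with exact 95% intervals and grey squares are peaks of the rest of the genome; the coloured points lie above the squares in every score class, and several intervals include them.

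Some EZH2 peaks of the stretch overlapped H3K27me3 in each genotype, and the shares depended on the peaks and the overlap counted. Of 25 WT EZH2 peaks 15 overlapped a WT H3K27me3 peak (exact 95% interval 38.7% to 78.9%), against 13.9% elsewhere. Of 25 KO EZH2 peaks 12 overlapped a KO H3K27me3 peak (48%, 27.8 to 68.7), against 18.97% elsewhere. With peaks of score 7 or more the share was 63.2% of 19 peaks in WT and 20% of only 5 peaks in KO. With an overlap of at least 50% of the peak it was 32% in WT and 32% in KO. In each genotype 19 of 25 EZH2 peaks lay within 1 kb of an H3K27me3 peak. In the other direction 12 of 118 WT and 12 of 85 KO H3K27me3 peaks overlapped EZH2. H3K27me3 covered 20.2% of the stretch in WT and 13.2% in KO, and by their peak names the EZH2 and H3K27me3 lists of one genotype share an input. The part of either in the overlap was not tested.

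By member, the coincidence was uneven. All but 1 of the WT EZH2 peaks at PNLIPRP3 overlapped H3K27me3, and 3 of 5 did in KO. At PNLIP 3 of the 6 KO EZH2 peaks did, and the other 3 lay 262, 331 and 2 bp from an H3K27me3 peak. At PNLIPRP1 neither the WT EZH2 peak nor the 2 KO peaks overlapped H3K27me3, at distances of 1377 bp in WT and 1951 and 3735 bp in KO.

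Other genes of the exocrine pancreas had lower H3K27me3 shares than PNLIPRP3 and PNLIP in WT, which the choice of the cluster by WT H3K27me3 favoured in advance. Of 30 such genes, 11 had an H3K27me3 peak in WT, 8 in KO and 5 in both, and the median covered share was 0, as over all genes. Of all protein-coding genes, 26.1% had such a peak in WT, 23.2% in KO and 18.2% in both. PRSS1, cationic trypsinogen, had H3K27me3 over 4.43% of its window in WT and 5.36% in KO. PNLIPRP1, at 3.55% in WT, was below PRSS1 and below PNLIPRP2 (22.1%), a listed gene that lies in the stretch. CLPS, which encodes colipase, and CEL, the bile salt-dependent lipase, had no peak in any list. EZH2 was listed at 4 of the 30 genes in WT and 4 in KO, against 27% and 18.4% of protein-coding genes. Among the 30 with EZH2 were PRSS1 (4.02% and none), PRSS2 (none and 1.87%), PRSS3 (2.58% and 0.268%) and PNLIPRP2 (2.68% and 0.649%). The trypsinogen genes have near-identical copies, which makes their values uncertain.

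Lipases outside the cluster had short stretches of marking. Of 12 genes of the lipoprotein lipase and acid lipase families, 9 were marked by H3K27me3 in WT, 6 in KO and 5 in both, with median shares of 0.645% and 0.0824%. Of all protein-coding genes, 26.1% were marked in WT, 23.2% in KO and 18.2% in both. Among the 12, the highest in WT were LIPM (3.65% and 0.719%) and LIPK (3.05% and none), acid lipase genes expressed in skin, and the phospholipase gene PLA1A (2.24% and none). EZH2 was listed at 6 of the 12 in WT and 4 in KO, against 27% and 18.4% of protein-coding genes. Those of the 12 with EZH2 were LPL, lipoprotein lipase (3.69% and 1.92%), the endothelial lipase gene LIPG (1.18% and 2.60%), LIPM (2.75% and 1.13%) and LIPK (5 peaks and none). The others were LIPF, gastric lipase (0.665% and none), LIPN (0.552% and none) and PLA1A (none and 0.675%). Of 8 other lipid hydrolase genes none had H3K27me3, and MGLL, monoacylglycerol lipase, had EZH2 in KO only (0.133%).

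Genes of acinar transcription factors were marked in part. Of 10, 4 had H3K27me3 in WT and 5 in KO, against 26.1% and 23.2% of protein-coding genes. Among the 10, the highest in WT were ONECUT1 (8.39% and 3.595%), GATA4 (2.81% and 2.94%) and NR5A2 (2.61% and 0.348%). EZH2 was listed at PDX1, a pancreas-specifying homeobox gene (4.99% and none), NR5A2 (1.70% and 0.589%), FOXA2 (1.48% and none), GATA4 (1.22% and 1.24%) and ONECUT1 (0.581% and 1.73%). PTF1A and RBPJL, which form the acinar PTF1 complex, and BHLHA15 had no peak in any list.

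The genes whose 4 covered shares were most like those of PNLIP lay on other parts of the genome. By Euclidean distance over the 4 lists, ZPBP2 on chromosome 17, a sperm protein gene, came first at 7.08 points, with H3K27me3 at 31.3% in WT and 28.4% in KO and EZH2 at 6.39% and 5.52%. GTSF1 on chromosome 12, a germline factor of transposon silencing, followed at 7.08 points (33.95% and 25.7%, and 4.85% and 1.23%). DEFB107B, a defensin gene with near-identical copies and so uncertain, stood at 8.15 points, ASAH2, a neutral ceramidase gene on chromosome 10, at 8.54 and DHRS9, a retinol dehydrogenase gene, at 8.68. Each of these 5 had some EZH2 in WT, from 3.12% to 6.39%, where PNLIP had none.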

How the data were processed

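Peak lists of 4 ChIP libraries (H3K27me3 and EZH2 in ZCCHC8-WT and ZCCHC8-KO ACHN cells) were analysed, and 2 inputs entered only as their controls. Per the submitters' processing notes, the tools were cutadapt 1.9.3, a read trimmer, and the aligner Bowtie2 2.2.4, and the build was hg38. Per the file contents the authors called peaks per library, with a threshold of 1e-3 in the peak names. No source used here names the caller or the read depth, so the precision that depth gives is unknown. Each deposited list gives positions, the peak's length in bp and the authors' score, used only to rank or filter. Identical lines (up to 2 per peak in the stretch) were counted once.

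Coverage, overlaps (at least 1 bp) and exact 95% Clopper-Pearson intervals were computed in Python 3.11.15 (SciPy 1.17.1, pandas 2.3.3, NumPy 2.4.6), and figures drawn with matplotlib 3.10.9. The routines were tested on simulated data. Genes came from RefSeq (GRCh38.p14, chromosomes 1 to 22 and X). Members and lists were chosen with earlier results of these data known. Named were the members, all genes of the stretch and their neighbours, of each list the 3 highest in WT H3K27me3 and any with EZH2, and the 5 genes most like PNLIP; a result the rule also covers is not reported here. PTF1A, RBPJL, BHLHA15, CLPS and CEL were named after their values were seen. Alternatives changed the score threshold, list size, overlap, gene window, limits, counting of lines and stitching.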

Additional observations from a re-analysis of the deposited data

How the results depend on the processing

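Of 138 values under 9 alternative settings, 107 stayed close to the value as reported, 30 moved and 1 reversed. Close meant within 1.5 times for counts, widths and covered shares, and within the exact 95% counting interval, which is wide at 25 peaks, for shares of peaks and ratios. With peaks of score 7 or more, the EZH2 KO/WT ratio of covered length reversed, from 1.13 to 0.361, and KO EZH2 peaks numbered 5 in the stretch, 0 at PNLIPRP3 (0% covered), 2 at PNLIP (1.59%) and 1 at PNLIPRP1 (0.847%). That threshold acts on lists whose scores differ (EZH2 medians of 7 in WT and 5 in KO). The ratio was 1.37 with equal list sizes and 1.27 between the outer member windows. At scores of 7 or more, KO H3K27me3 peaks at PNLIPRP3 numbered 8, PNLIPRP1 had 5.15% in KO, and 20% of the 5 KO EZH2 peaks overlapped H3K27me3. The WT EZH2 peak at PNLIPRP1 was absent (0 peaks, 0%) with that threshold, with the WT list reduced to the size of the KO list, and in the gene body alone. In gene bodies, PNLIPRP1 had 1 WT H3K27me3 peak (0.999%) and PNLIP 11 KO peaks. With 10 kb on both sides, PNLIPRP1 had 8 WT H3K27me3 peaks (7.34%) and 5 WT EZH2 peaks (3.27%), and PNLIP 1 WT EZH2 peak (0.906%). Requiring 50% of the peak, 23.7% of WT H3K27me3 peaks were shared and 32% of WT EZH2 peaks overlapped H3K27me3. The PNLIP domain measured 5387 bp in WT and 4287 bp in KO when stitched across 1 kb, and 72413 bp in KO across 5 kb. Each setting by its construction takes in fewer or more peaks or bases.

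The H3K27me3 KO/WT ratio of covered length of the stretch was 0.558 with scores of 7 or more, 0.666 with equal list sizes and 0.698 between the outer member windows. The score threshold keeps 69.8% of the WT H3K27me3 list and 28.6% of the KO list. No paired analysis was possible because each group has 1 library. Read depth is unknown, so how far it limits the lists cannot be stated.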
